A study of Homo sapiens with 16 samples.

Results

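The genes described are 9 transcription factors that mark the Müllerian and ovarian carcinoma lineage: PAX8, SOX17, EMX2, LHX1, WT1, MECOM, GATA6 and the steroid receptors ESR1 and PGR. They were taken by symbol from the 59428 genes of the count table, and all 9 have a row in it. RNA was measured in 2 ovarian carcinoma cell lines, OVCAR3 with intact BRCA1 and UWB1.289 with a deleterious BRCA1 mutation, each kept for 96 h with olaparib, an inhibitor of PARP enzymes, or with its solvent DMSO. UWB1.289 received 3.5 µM and OVCAR3 7.5 µM, and each of the 4 groups (OVCAR3 DMSO, OVCAR3 olaparib, UWB1.289 DMSO, UWB1.289 olaparib) holds 4 libraries, 16 in all. The lines also differ in medium, so medium, dose, BRCA1 status and line cannot be told apart, and each BRCA1 status is represented by 1 line. The labels do not say whether the 4 replicates were separate cultures, so p-values measure only the spread between these libraries.

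Reads were taken from the 3' ends of polyadenylated RNA and counted per gene, with 5599571 to 7730228 counts per library. Levels are given as CPM, each library's counts scaled to a common total with TMM factors over the 16 libraries, and averages as mean ± SD of 4 libraries. Tests are edgeR's quasi-likelihood test with Benjamini-Hochberg adjustment over all genes tested. A gene passed the test at an adjusted p below 0.1, and was called where it also changed more than 2-fold with an average count above 10. The whole set of 11 epithelial and serous carcinoma markers (among them EPCAM, KRT7, KRT8 and MUC16) was detected in every group. In a bulk sample, fewer cells that express a gene and less RNA of it per cell cannot be told apart.

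As background, the Müllerian duct gives rise to the oviduct, uterus and upper vagina, and high-grade serous carcinoma shares many transcription factors with oviduct epithelium. PAX8 and SOX17 are DNA-binding factors of that epithelium which are known to act together in ovarian carcinoma cells, and PAX8 is used in pathology as a marker of Müllerian origin. LHX1 and EMX2 are homeodomain factors of the early urogenital ridge and ducts, and WT1 is a zinc finger factor of the developing kidney, gonad and mesothelium that is also a pathology marker of serous carcinoma. MECOM encodes zinc finger proteins (EVI1 and MDS1-EVI1) at 3q26, a region often gained in ovarian carcinoma. GATA6 is a zinc finger factor of endoderm and ovarian surface epithelium, and ESR1 and PGR are the estrogen receptor alpha and the progesterone receptor, ligand-activated factors.

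In the GENCODE release 44 annotation of GRCh38, PAX8 lies on chromosome 2 from 113215997 to 113278921 on the minus strand, WT1 on chromosome 11 from 32387775 to 32435564 on the minus strand and MECOM on chromosome 3 from 169083499 to 169663775 on the minus strand, the widest of the 9 genes with 580.3 kb. EMX2 (chromosome 10, 117542445 to 117549546), LHX1 (chromosome 17, 36936785 to 36944612), GATA6 (chromosome 18, 22169589 to 22202528) and ESR1 (chromosome 6, 151656691 to 152129619) lie on the plus strand. PGR lies on chromosome 11 from 101029624 to 101129813 on the minus strand. RefSeq promoter windows of GRCh38.p14 were matched for 7 of the 9 genes, in 19 windows, since several of the genes have more than 1 annotated start. No window was matched for SOX17 and LHX1.

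The sequence before the annotated start is shown for PAX8, whose level did not differ with olaparib beyond the replicate spread, and for WT1 and MECOM, which were lower with olaparib in OVCAR3. Each is written 5' to 3' on the gene's own strand and stops where the annotated transcript begins. Capitals mark CCAAT boxes (CCAAT) and GC boxes (GGGCGG), read on both strands, so that a GC box on the opposite strand appears as CCGCCC.
PAX8, chr2:113278922-113279171, minus strand: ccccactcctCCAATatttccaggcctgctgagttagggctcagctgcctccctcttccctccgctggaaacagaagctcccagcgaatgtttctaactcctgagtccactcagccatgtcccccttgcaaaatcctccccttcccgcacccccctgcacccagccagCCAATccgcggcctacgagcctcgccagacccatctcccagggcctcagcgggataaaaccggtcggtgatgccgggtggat
WT1, chr11:32435565-32435789, minus strand: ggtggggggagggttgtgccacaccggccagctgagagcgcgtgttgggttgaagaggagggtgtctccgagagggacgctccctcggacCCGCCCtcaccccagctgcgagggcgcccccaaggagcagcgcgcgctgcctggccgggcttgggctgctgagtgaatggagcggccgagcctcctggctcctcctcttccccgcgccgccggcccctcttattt
MECOM, chr3:169663776-169663962, minus strand: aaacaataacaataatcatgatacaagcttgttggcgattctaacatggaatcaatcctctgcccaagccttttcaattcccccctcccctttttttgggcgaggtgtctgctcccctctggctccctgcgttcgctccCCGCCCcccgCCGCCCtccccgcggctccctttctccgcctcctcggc

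PAX8 has 2 CCAAT boxes and no GC box in these bases, WT1 has 1 GC box and MECOM has 2. Among all 35116 RefSeq windows of 250 bases, 32.0% hold a CCAAT box and 42.6% a GC box, so both are common. The window of EMX2, which lies within its longest annotated first exon and is not printed, holds 2 GC boxes, 1 CCAAT box and 1 homeodomain core (TAATTA), which 4.35% of all windows hold. The full window of the distal MECOM start also holds a GATA site (TGATAA, in 6.66% of windows), 31 bases before the RefSeq start. The nuclear receptor site AGGTCA, held by 12.1% of windows, was matched in 1 of 4 WT1 windows and 1 of 3 MECOM windows, and in none of the windows of ESR1, PGR, PAX8, EMX2 and GATA6. TATAAA, held by 10.7% of windows, was matched in no window of the 7 genes. These matches describe letters only, and counts per gene do not tell which start was used.

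The 9 genes fell into those read at many counts in both lines, those read at many counts in OVCAR3 alone and those near the floor of detection. PAX8 and SOX17 were read at 450 counts or more in every library. EMX2 and WT1 were high in OVCAR3 and at or near 0 in UWB1.289, LHX1 and MECOM were read in both lines but lower in UWB1.289, and GATA6, ESR1 and PGR had at most 17 counts in any library.

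**Figure D1:**
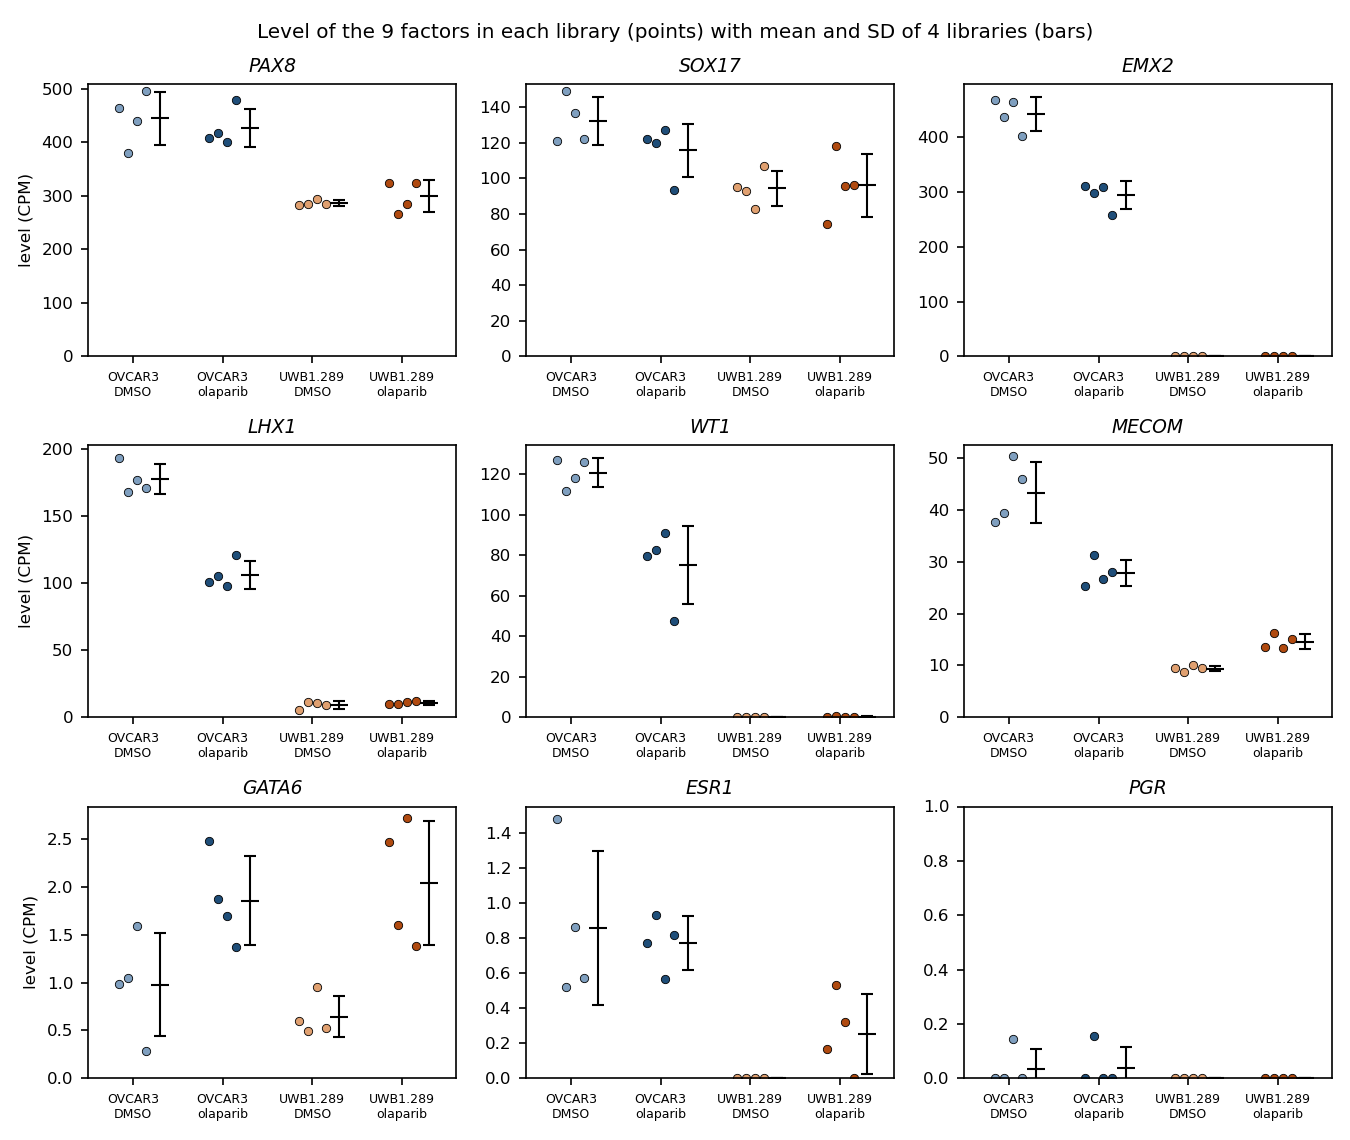
Level of each of the 9 genes in CPM (vertical axes, each from 0) in the 4 groups (horizontal axes), with 1 point per library and, beside the points, the mean and SD of 4 libraries. EMX2, LHX1, WT1 and MECOM sit lower in every OVCAR3 olaparib library than in every OVCAR3 DMSO library, PAX8 and SOX17 overlap, and EMX2 is at 0 in all 8 UWB1.289 libraries.

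Olaparib in OVCAR3 was compared with DMSO to find which lineage factors differ under PARP inhibition in the BRCA1 wild-type line. EMX2, LHX1, WT1 and MECOM were lower with olaparib by 1.5-fold to 1.66-fold, while PAX8 and SOX17 did not pass the test. Of the 9 genes 7 passed the filter on low counts and were tested, 4 passed the test, all 4 of them lower, and 0 were called, since none changed more than 2-fold. An unadjusted p below 0.05 was reached by the same 4 of the 7, and DESeq2 also called 0. Among all 13031 genes tested, 31.5% passed the test, 16% were lower with olaparib and 5.23% were called, and the median log2 fold change was -0.012.

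LHX1, which patterns the Wolffian and Müllerian ducts, had 193, 168, 177 and 171 CPM in OVCAR3 DMSO replicates 1 to 4 and 101, 105, 97.6 and 121 CPM in the olaparib replicates. The groups did not overlap. The mean fell from 177 ± 11.1 to 106 ± 10.4 CPM (SD, n = 4 each), a log2 fold change of -0.73 (SE 0.0835, adjusted p = 2.03e-06 by edgeR).

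EMX2, needed for the urogenital tract to form, had 468, 437, 464 and 402 CPM with DMSO and 312, 298, 310 and 258 CPM with olaparib. Every olaparib library lay below every DMSO library, and the means were 443 ± 30.3 and 294 ± 25.1 CPM. The log2 fold change was -0.58 (SE 0.0781, adjusted p = 1.38e-05 by edgeR).

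WT1 had 127, 112, 118 and 126 CPM with DMSO and 79.7, 82.4, 91.2 and 47.6 CPM with olaparib. Olaparib replicate 4 was the lowest and replicate 3 the highest of the treated libraries, and none reached the DMSO range. The means were 121 ± 7.09 and 75.2 ± 19.1 CPM, with a log2 fold change of -0.68 (SE 0.133, adjusted p = 8e-04 by edgeR). Leaving out each library in turn gave log2 fold changes from -0.78 to -0.51, all past the test.

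MECOM had 37.6, 39.3, 50.3 and 45.9 CPM with DMSO and 25.3, 31.3, 26.7 and 28 CPM with olaparib. The highest olaparib library lay below the lowest DMSO library. The means were 43.3 ± 5.89 and 27.8 ± 2.57 CPM, with a log2 fold change of -0.64 (SE 0.117, adjusted p = 0.000436 by edgeR).

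PAX8 had 463, 379, 439 and 496 CPM with DMSO and 408, 417, 400 and 479 CPM with olaparib, and the groups overlapped. Its log2 fold change was -0.06 (SE 0.0842, adjusted p = 0.677 by edgeR), with a 95% interval from -0.23 to 0.12. SOX17, an SRY-related factor whose gene spans 54457935 to 54460892 on the plus strand of chromosome 8, had 121, 149, 137 and 122 CPM with DMSO and 122, 120, 127 and 93.7 CPM with olaparib. These groups overlapped as well, and the log2 fold change was -0.19 (SE 0.0976, 95% interval -0.39 to 0.02, adjusted p = 0.175 by edgeR). Neither interval reaches the fall of EMX2, LHX1, WT1 or MECOM as estimated, but whether PAX8 and SOX17 differ from these 4 genes in their change was not tested.

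GATA6 had 6, 6, 11 and 2 counts with DMSO and 16, 12, 12 and 10 counts with olaparib, 25 against 50 counts in all. The groups overlapped in DMSO replicate 3, and the log2 fold change of 0.91 (SE 0.442) did not pass the test (adjusted p = 0.145 by edgeR). Without that library it was 1.28 and passed (adjusted p = 0.0883). ESR1 had 9, 3, 6 and 4 counts with DMSO and 5, 6, 4 and 6 with olaparib, too few for the filter. PGR had 1 count in DMSO replicate 3 and 1 in olaparib replicate 2, and 0 in the other OVCAR3 libraries, which is no more than the floor of 3 counts over a group (0.117 CPM with DMSO and 0.11 CPM with olaparib).

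**Figure D2:**
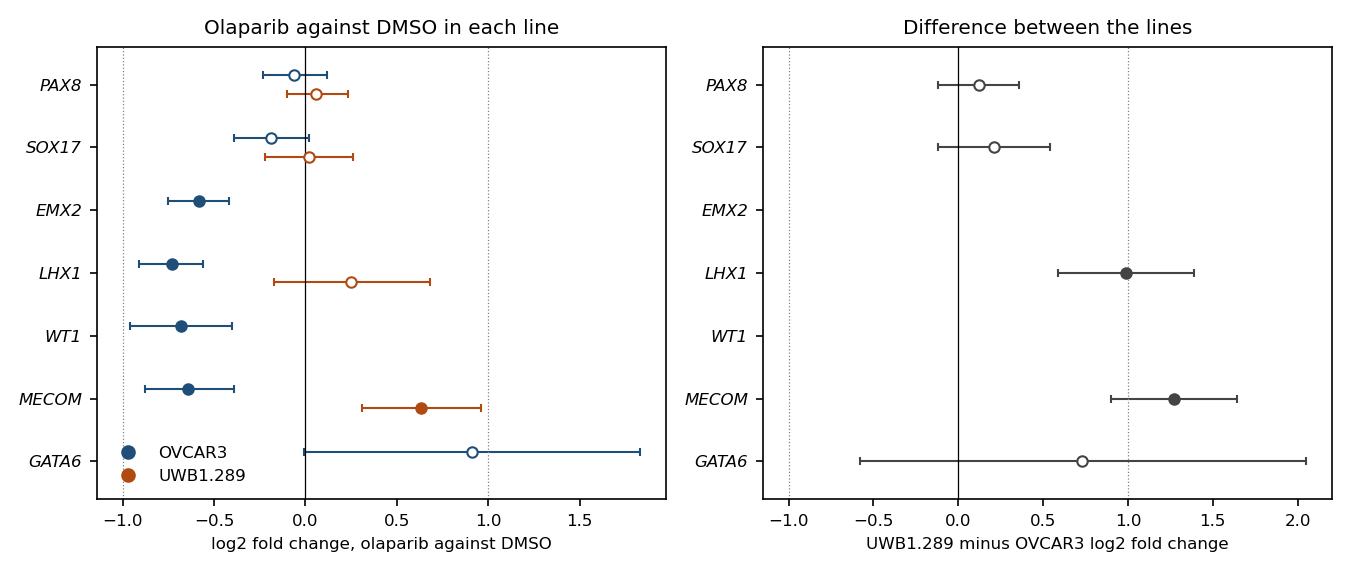
Left, log2 fold change of olaparib against DMSO in OVCAR3 (blue) and UWB1.289 (orange) for the members tested, with 95% intervals. Filled points passed the test and open points did not, and dotted lines mark a 2-fold change. Right, UWB1.289 minus OVCAR3 log2 fold change with 95% intervals, drawn for 5 genes, since EMX2 and WT1 have no level in UWB1.289 to compare. MECOM lies at -0.64 in OVCAR3 and at 0.63 in UWB1.289.

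In UWB1.289 the same comparison asked for the factors that differ under olaparib in the BRCA1-mutated line. MECOM was 1.55-fold higher with olaparib, the opposite direction from OVCAR3, and PAX8, SOX17 and LHX1 did not pass the test. Only these 4 of the 9 genes passed the filter on low counts, 1 passed the test and 0 were called, by DESeq2 as well, with 1 at an unadjusted p below 0.05. Over all 12748 genes tested in this line, 13.9% passed the test, 7.77% were higher with olaparib and 2.21% were called, with a median log2 fold change of -0.004.

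MECOM had 9.47, 8.65, 10 and 9.48 CPM in the UWB1.289 DMSO replicates and 13.5, 16.3, 13.4 and 15.1 CPM in the olaparib replicates. The groups did not overlap, and the means were 9.41 ± 0.567 and 14.6 ± 1.39 CPM. The log2 fold change was 0.63 (SE 0.156, adjusted p = 0.011 by edgeR). Raw counts of MECOM in this line were 52 to 99 per library, so that counting error is a larger part of its spread than in OVCAR3.

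PAX8 had 283, 285, 294 and 284 CPM with DMSO, the narrowest spread of its 4 groups, and 324, 265, 285 and 323 CPM with olaparib. The log2 fold change was 0.06 (SE 0.0793, 95% interval -0.1 to 0.23, adjusted p = 0.691 by edgeR). SOX17 had 95, 93, 82.9 and 107 CPM with DMSO and 74.1, 118, 95.9 and 96 CPM with olaparib, and its log2 fold change was 0.02 (SE 0.115, 95% interval -0.22 to 0.26, adjusted p = 0.934 by edgeR). LHX1 had 5.56, 11.5, 11 and 8.82 CPM with DMSO and 9.55, 9.94, 11.5 and 12.5 CPM with olaparib. These overlapped, with a log2 fold change of 0.25 (SE 0.204, 95% interval -0.17 to 0.68, adjusted p = 0.501 by edgeR).

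GATA6 had 4, 3, 6 and 4 counts with DMSO and 15, 9, 17 and 9 counts with olaparib in UWB1.289, 17 against 50 counts in all. Every olaparib library was above every DMSO library, from 0.499 to 0.955 CPM against 1.38 to 2.72 CPM. The gene did not pass the filter on low counts and so was not tested in the planned fit. It passed where the filter was dropped (log2 fold change 1.62, adjusted p = 0.0451 by edgeR), where all 16 libraries were fitted (1.64, adjusted p = 0.0217) and with DESeq2 (1.66, adjusted p = 0.0577).

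WT1 was read at 0 counts in all 4 UWB1.289 DMSO libraries and at 0, 3, 1 and 0 counts with olaparib. EMX2 had 0 counts in all 8 libraries of the line, which allows up to 0.113 CPM with DMSO and 0.122 CPM with olaparib (3 counts over the group). ESR1 had 0 counts with DMSO and 1, 3, 2 and 0 with olaparib, and PGR had 0 in all 8. None of these 4 genes was tested for olaparib in this line in the planned fit. Without the filter WT1 (adjusted p = 0.352 by edgeR) and ESR1 (0.219) did not pass, and with all 16 libraries fitted neither did WT1 (0.266) and EMX2 (1). Floors cover counting error only.

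Whether olaparib acted on a factor to a different extent in the lines was tested as the difference of the log2 fold changes, UWB1.289 minus OVCAR3, over all 16 libraries. The difference for MECOM was 1.27 (SE 0.183, 95% interval 0.9 to 1.64, adjusted p = 1.89e-05 by edgeR), from a fall in OVCAR3 and a rise in UWB1.289. The difference for LHX1 was 0.99 (SE 0.197, 95% interval 0.59 to 1.39, adjusted p = 0.00129), from a fall in OVCAR3 and an increase within the replicate spread in UWB1.289. Of 7 members tested, 2 passed, both upward, and 1, MECOM, was called. These 7 include EMX2 and WT1, which passed the filter through OVCAR3 alone. Among all 14243 genes tested 5.1% passed upward and 2.01% were called upward. PAX8 differed by 0.12 (95% interval -0.12 to 0.36, adjusted p = 0.624), SOX17 by 0.21 (-0.12 to 0.54, adjusted p = 0.499) and GATA6 by 0.73 (-0.58 to 2.05, adjusted p = 0.576), and these intervals leave room for differences in either direction. For EMX2 and WT1 no difference is read, since UWB1.289 was at or near 0.

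Because the doses were 7.5 and 3.5 µM, the MECOM and LHX1 differences compare lines at unequal dose. With the replicate number as a block LHX1 also passed 2-fold, which made 2 called members in place of 1.

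Between the lines without drug, all 6 members tested were lower in UWB1.289, and 4 of them were called: EMX2, LHX1, WT1 and MECOM. EMX2 and WT1 had 0 counts in UWB1.289 with DMSO and passed the filter through OVCAR3 alone, so their direction was fixed in advance. Among all 13366 genes tested 40.1% passed lower in UWB1.289 and 19.7% were called lower. EMX2 was at least 3910-fold lower and WT1 at least 1070-fold lower, counting 3 reads over the UWB1.289 group as the bound. LHX1 was at 9.21 ± 2.69 CPM in UWB1.289 against 177 ± 11.1 CPM in OVCAR3, which is 19.4-fold lower (log2 -4.28, SE 0.124, adjusted p = 3.79e-23 by edgeR). MECOM was 4.61-fold lower (log2 -2.2, SE 0.134, adjusted p = 2.85e-15 by edgeR).

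PAX8 and SOX17 differed between the lines by less. PAX8 was at 287 ± 5.07 CPM in UWB1.289 and 444 ± 49.1 CPM in OVCAR3, 1.55-fold lower (log2 -0.64, SE 0.0732, adjusted p = 4.78e-09 by edgeR). SOX17 was at 94.6 ± 10 and 132 ± 13.5 CPM, 1.4-fold lower (log2 -0.48, SE 0.0869, adjusted p = 1.09e-05 by edgeR). In both the DMSO groups of the lines did not overlap. ESR1, with 22 counts in OVCAR3 DMSO and 0 in UWB1.289 DMSO, was at least 7.57-fold lower, and GATA6, with 25 and 17 counts, overlapped between the lines. Neither was tested in the planned fit. ESR1 passed, lower in UWB1.289, without the filter (adjusted p = 0.000141 by edgeR) and with DESeq2 (adjusted p = 0.000681), while GATA6 did not (adjusted p = 0.451 and 0.519).

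The order of the 4 groups therefore differed by gene. PAX8 and SOX17 ran from OVCAR3 DMSO through OVCAR3 olaparib to the UWB1.289 groups, and in each gene the groups of the same line did not differ beyond their spread. In SOX17 the olaparib libraries of the lines overlapped (93.7 to 127 and 74.1 to 118 CPM). LHX1 ran from OVCAR3 DMSO to OVCAR3 olaparib to the UWB1.289 groups, which overlapped. MECOM separated all 4 groups with no overlap between neighbours: OVCAR3 DMSO at 37.6 to 50.3, OVCAR3 olaparib at 25.3 to 31.3, UWB1.289 olaparib at 13.4 to 16.3 and UWB1.289 DMSO at 8.65 to 10 CPM. The gap between the lines was thus narrower with olaparib than with DMSO, which is the difference tested above.

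Non-coding genes lie beside or across 5 of the members, and their counts follow. EMX2OS runs opposite to EMX2, overlaps 2624 bases of it and is a long non-coding RNA gene. It had 135, 118, 126 and 138 CPM in OVCAR3 DMSO and 70.7, 73.6, 73.6 and 74.2 CPM in OVCAR3 olaparib. The groups did not overlap, with a log2 fold change of -0.82 (SE 0.0797, adjusted p = 2.35e-07 by edgeR), and EMX2OS had 0 counts in every UWB1.289 library, as EMX2 did. WT1-AS starts opposite to WT1 with 47 bases in common. It had 11.9, 8.73, 10.8 and 9.87 CPM with DMSO and 4.19, 5.29, 6.67 and 6.29 CPM with olaparib in OVCAR3, a log2 fold change of -0.87 (SE 0.198, adjusted p = 0.00292 by edgeR), and 0 counts in UWB1.289. EMX2 and EMX2OS, and WT1 and WT1-AS, were thus lower together in OVCAR3 with olaparib.

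LHX1-DT starts 114 bases from LHX1 in the opposite direction and does not overlap it. Unlike LHX1 it did not pass the test in OVCAR3, at 27.5, 23.9, 17.9 and 25.9 CPM with DMSO and 23.1, 21.3, 22.7 and 18 CPM with olaparib (log2 -0.16, SE 0.142, adjusted p = 0.464 by edgeR). In UWB1.289 it was higher with olaparib, from 5.83 ± 1.74 to 9.17 ± 0.545 CPM (log2 0.67, SE 0.213, adjusted p = 0.0524 by edgeR). Its difference between the lines was 0.83 (SE 0.248, adjusted p = 0.0369 by edgeR). PAX8-AS1, which overlaps 60585 bases of PAX8 on the other strand, had at most 3 counts in any library, and GATA6-AS1 at most 9.

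Whether reads were counted by strand is not given in the sources used here, so for overlapping genes reads of a gene and its antisense partner cannot be told apart from the counts alone. The annotated 3' ends, from which these libraries are read, lie 76.3 kb apart for EMX2 and EMX2OS and 112.9 kb apart for WT1 and WT1-AS. The 3' end of EMX2 lies 4478 bases outside EMX2OS and that of WT1 lies 47743 bases outside WT1-AS.

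**Figure D3:**
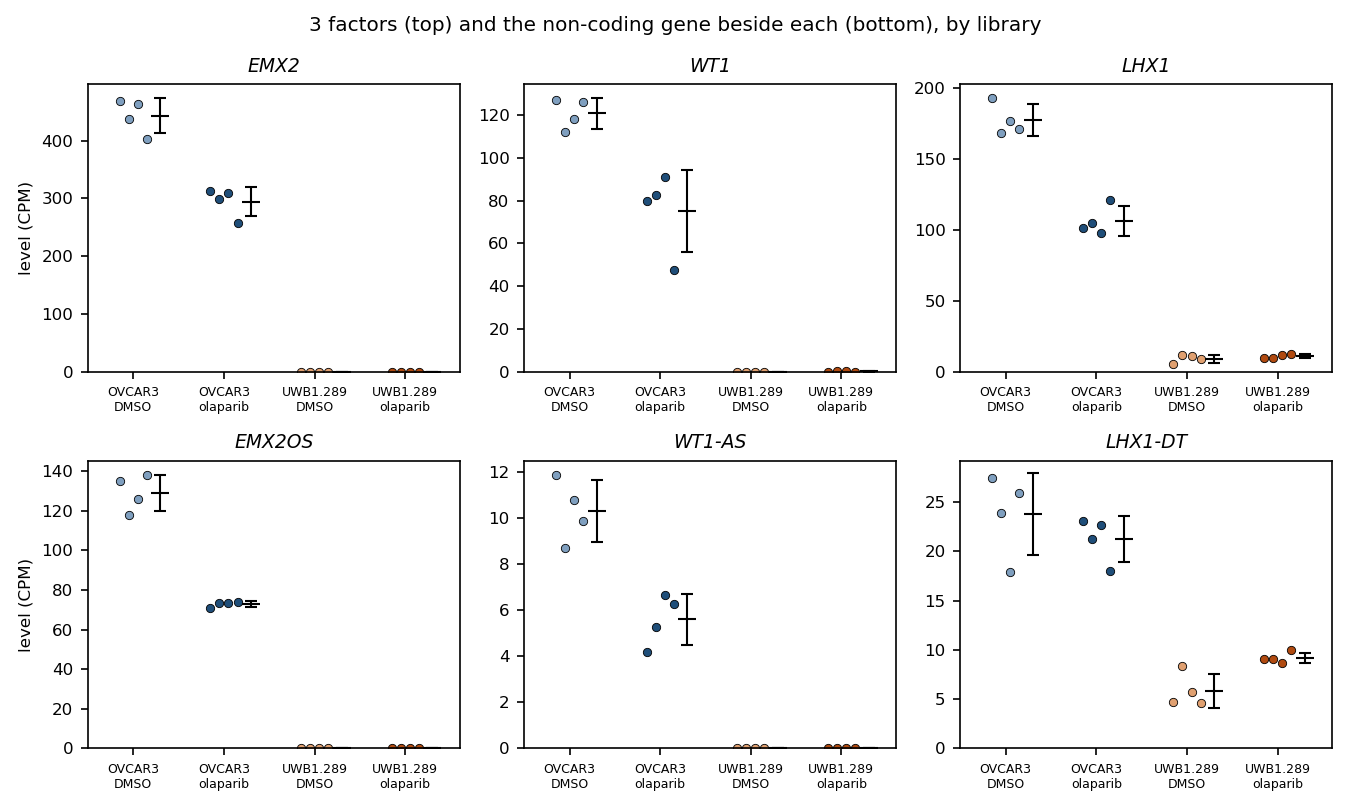
Level in CPM (vertical axes, from 0) of EMX2, WT1 and LHX1 (top) and of EMX2OS, WT1-AS and LHX1-DT (bottom) in the 4 groups, with 1 point per library and the mean and SD of 4 libraries. EMX2OS and WT1-AS are lower in OVCAR3 with olaparib without overlap and at 0 in UWB1.289, while LHX1-DT overlaps between the OVCAR3 groups.

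The protein-coding neighbours of the 4 genes that fell in OVCAR3 were looked up after the values were seen, 2 on each side. Of these 16 genes 13 were tested, and 3 passed the test, all lower: RAB11FIP2 near EMX2 (log2 -0.32, adjusted p = 0.0053 by edgeR), and PAX6 (-0.38, 0.0149) and EIF3M (-0.37, 0.0424) on either side of WT1. AATF, 4.3 kb from LHX1, stood at 0.03 (adjusted p = 0.887) while LHX1 fell by 0.73 on the log2 scale. No neighbour of MECOM or LHX1 passed in OVCAR3. Over all genes tested in OVCAR3, 16% passed the test lower with olaparib.

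Around MECOM, 19 genes of 3q26 had been listed. With olaparib 2 of 12 tested rose and 1 fell in OVCAR3, and 1 of 15 fell in UWB1.289. Between the lines without drug 9 of 15 were higher in UWB1.289 and 2 lower, 7 of them called higher, among them LRRC34, CLDN11 and SERPINI1 (log2 2.73, SE 0.309). These 3 had 0, 15 and 27 counts over the OVCAR3 DMSO group. They passed the filter through UWB1.289 alone, so their direction was fixed in advance. GOLIM4 (log2 1.59) was read at many counts in both lines. MECOM, at -2.2, had the opposite direction from the 9 higher genes and the same direction as the 2 lower ones, of which 0 were called. Over all 13366 genes tested 40.1% passed lower and 19.7% were called lower in UWB1.289. Of the 5126 called, 48.7% were higher, a share to set beside the 7 called genes of the list and not beside the 15 tested.

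Paralogues of the members were mostly near 0, with 3 of 16 tested in OVCAR3. GATA2, a GATA factor best known from blood formation, rose from 3.85 ± 1.41 to 21.2 ± 4.94 CPM in OVCAR3 with olaparib (log2 2.47, SE 0.231, adjusted p = 1.54e-07 by edgeR). It also rose in UWB1.289, from 0.757 ± 0.524 to 2.41 ± 0.538 CPM (log2 1.6, SE 0.451, adjusted p = 0.0266 by edgeR). In that line it had 1 to 10 counts per DMSO library and passed the filter through the olaparib libraries alone. A rise was thus the only direction open there. The difference between the lines, -0.87, did not pass (adjusted p = 0.386 by edgeR). ESR2, estrogen receptor beta, was at 0 or at 1 count in every library.

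Of 30 other developmental factors and signals of the Müllerian and urogenital tract, 15 were tested in OVCAR3, 7 fell and 5 rose with olaparib, and the median log2 fold change was -0.59. For this and the other lists, the shares over all genes tested were 31.5% passed and 16% passed lower in OVCAR3. In UWB1.289 they were 13.9% passed and 7.77% passed higher. SOX9, an SRY-related factor of gonad and duct progenitors, rose from 8.94 ± 0.554 to 40.5 ± 5.69 CPM (log2 2.18, SE 0.137, adjusted p = 5.68e-10 by edgeR). LHX2, a LIM-homeodomain factor as LHX1 is, rose from 1.87 ± 0.629 to 5.21 ± 1.68 CPM (log2 1.45, SE 0.324, adjusted p = 0.00253 by edgeR). With DMSO LHX2 had 6 to 18 counts per library, so counting error is large there. Genes that fell, named after their values were seen, included the nuclear receptors NR2F1 and NR2F2 (log2 -0.59 and -0.7), the TALE factors MEIS1 and MEIS2 (-0.6 and -0.65), the ligand WNT5A (-0.65) and DACH1 (-0.78).

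In UWB1.289 3 of 13 tested genes of this list fell and 0 rose, with a median of -0.04. WNT5A fell from 2.48 ± 0.293 to 1.04 ± 0.606 CPM (log2 -1.22, SE 0.417, adjusted p = 0.0712 by edgeR). With olaparib WNT5A had 1 to 9 counts per library and passed the filter through the DMSO libraries alone, so a fall was the only direction open. NR2F2 fell by 0.22 on the log2 scale (adjusted p = 0.0787). SOX9 stood at 59.8 ± 11.3 and 64.7 ± 8.44 CPM (log2 0.12, adjusted p = 0.613 by edgeR) and its difference between the lines passed, at -2.07 (SE 0.192, adjusted p = 9.26e-09 by edgeR).

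Genes known as estrogen receptor targets were read although ESR1 itself had at most 9 counts in a library. Of 23, 15 were tested in OVCAR3, 6 rose and 2 fell with olaparib, with a median log2 fold change of 0.15. AREG, an EGF receptor ligand, rose from 10.7 ± 2.34 to 58.2 ± 7.82 CPM (log2 2.45, SE 0.148, adjusted p = 4.1e-10 by edgeR), CA12, a carbonic anhydrase, rose by 1.41 (SE 0.28) and CCND1, cyclin D1, by 1.08 (SE 0.104). AGR2, a protein disulfide isomerase of secretory cells, fell by 1.37 on the log2 scale (SE 0.35, adjusted p = 0.00673 by edgeR). AREG, CA12 and CCND1 have other known regulators besides the estrogen receptor. GREB1, an estrogen-induced gene, stood at 2.92 ± 0.706 and 2.87 ± 0.742 CPM in OVCAR3, and TFF1 was at 0 in every DMSO library of both lines. In UWB1.289 3 of 14 rose, 2 fell and 0 were called.

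Of 23 pioneer factors, coactivators, corepressors and chaperones of steroid receptors, 22 were tested in OVCAR3, where 4 rose and 5 fell. The forkhead factor FOXA2 fell from 11.6 ± 2.56 to 3.83 ± 0.951 CPM (log2 -1.59, SE 0.226, adjusted p = 2.9e-05 by edgeR). In UWB1.289 1 of 22 rose and 3 fell.

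Among 14 cofactors of the other members, 4 rose and 2 fell in OVCAR3. BASP1, known to turn WT1 from activation to repression, rose from 42.6 ± 3.13 to 108 ± 3.16 CPM (log2 1.34, SE 0.0851, adjusted p = 5.74e-10 by edgeR). A link between the levels of BASP1 and WT1 was not tested. SSBP2, which binds the LIM-domain partner LDB1, fell from 15.1 ± 3.25 to 6.56 ± 1.03 CPM (log2 -1.2, SE 0.19, adjusted p = 9.12e-05 by edgeR). In UWB1.289, where WT1 was at or near 0, 1 of 12 rose, BASP1 by 0.65 on the log2 scale (SE 0.163, adjusted p = 0.012 by edgeR), and 2 fell.

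**Figure D4:**
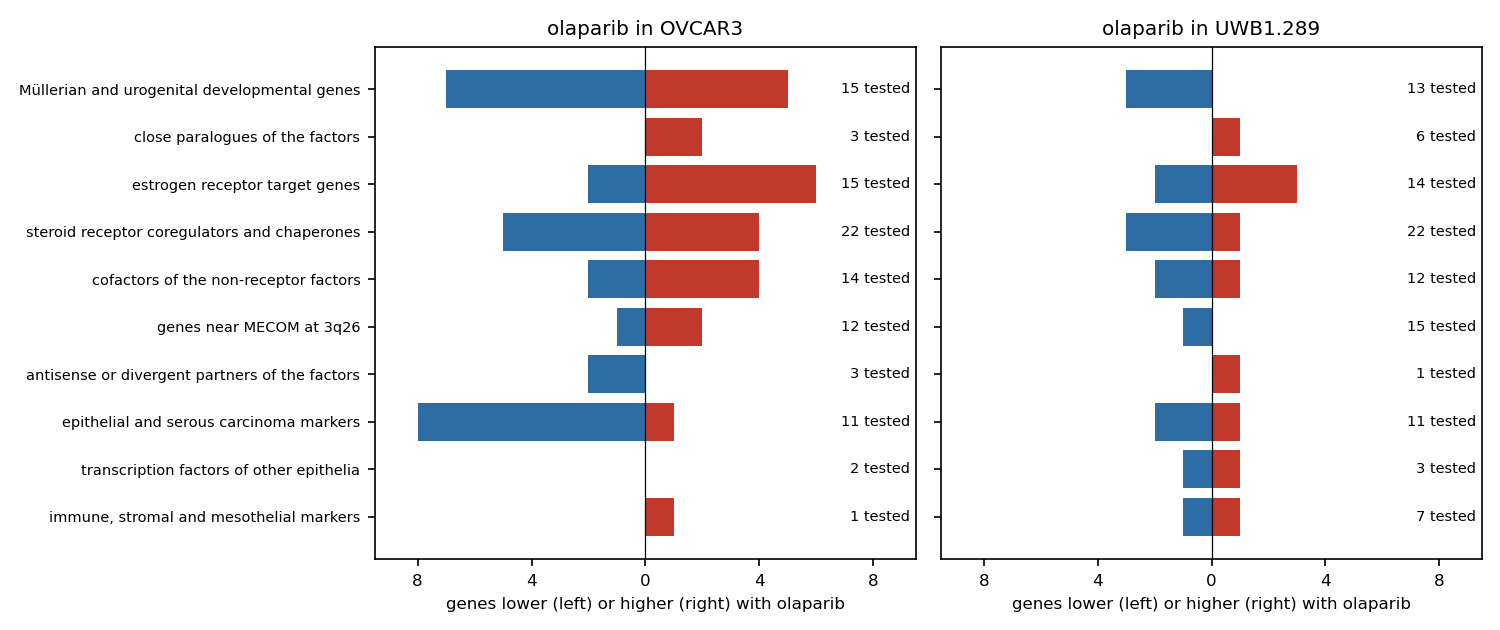
Number of genes of each list that passed the test lower (blue, to the left) or higher (red, to the right) with olaparib in OVCAR3 and in UWB1.289, with the number tested at the right of each row. In OVCAR3 the Müllerian and urogenital list had 7 lower and 5 higher of 15 tested, and the epithelial and serous carcinoma markers 8 lower and 1 higher of 11.

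Several epithelial markers were also lower with olaparib in OVCAR3. Of 11, 8 fell and 1 rose, where 16% of all genes tested passed lower. Their summed level was 4850 to 5150 CPM with DMSO and 2880 to 3250 CPM with olaparib, with none at 0. The largest falls in CPM were those of KRT18 (1790 to 881), KRT8 (832 to 400) and KRT19 (810 to 508). EPCAM stood at 314 and 276 CPM, CDH1 at 113 and 105 and KRT7 at 345 and 393, DMSO first. FOLR1, KRT8 and KRT18 fell by 1.11, 1.05 and 1.02 on the log2 scale. In UWB1.289, where MECOM rose, 2 fell and 1 rose, with sums of 8230 to 8810 and 6500 to 7970 CPM. The part of these markers in the results for the lineage factors was not tested. The 15 markers of immune, endothelial, fibroblast and mesothelial cells summed to 25.8 to 34.5 and 35.4 to 43.3 CPM in OVCAR3 and to 64.9 to 86.4 and 53 to 62.4 CPM in UWB1.289, DMSO first. LUM was at 0 in all 4 groups, and PECAM1 in OVCAR3 with DMSO and CD3E and DCN in both UWB1.289 groups were at 0 as well. Others were read in UWB1.289, such as COL1A2 at 48.4 and 23.6 CPM and PTPRC at 6.13 and 7.87 CPM, DMSO first. Without drug 5 of 6 tested were called higher in UWB1.289 than in OVCAR3 and 1 lower. The higher ones were near the floor in OVCAR3 DMSO, such as PTPRC, COL1A2 and CD14 with 6, 19 and 19 counts over the group. They passed the filter through UWB1.289 alone, so their direction was fixed in advance. Over all genes 48.7% of those called between the lines were higher. Of these markers 1 was tested in OVCAR3 and rose, and in UWB1.289 1 of 7 rose (CD14, log2 1.28) and 1 fell (COL1A2, -1.03). Of 8 transcription factors of other epithelia, neither of the 2 tested passed in OVCAR3, and in UWB1.289 1 of 3 rose and 1 fell.

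The genes most like each member were found as those with the smallest root mean square difference of mean-centred log2 CPM over the 16 libraries, among 14242 other genes. For EMX2 they were BMP7 (0.356), FLG (0.435) and EMX2OS (0.952). BMP7, a BMP ligand, was at 677 CPM with DMSO and 272 CPM with olaparib in OVCAR3 on average, and near 0 in UWB1.289. For LHX1 they were RIPK4 (0.244), SLC5A3 (0.26) and HEYL (0.305), and for MECOM CDKN2AIP (0.2), NDRG1 (0.201) and BAG1 (0.22). NDRG1 stood at 391 and 224 CPM in OVCAR3 and at 98.2 and 123 CPM in UWB1.289, DMSO first, the same order of the groups as MECOM. EMX2OS (0.425) was the nearest to WT1, and RWDD2B (0.491) the third. LRPAP1 (0.0858), RBM22 (0.0906) and EXOC3 (0.0929) were nearest to PAX8, and DCAF1 (0.0962), GRSF1 (0.105) and ODC1 (0.11) to SOX17. These measures describe likeness over the same libraries that share line and treatment, and GATA6, with few counts, had none nearer than 0.341.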

How the data were processed

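RNA of OVCAR3 and UWB1.289, 4 libraries per group, was prepared with the QuantSeq 3' kit. The authors trimmed reads with BBDuk, aligned single-end reads to hg38 with STAR 2.7.9a and counted them per gene with featureCounts 2.0.0 and GENCODE release 38. The deposited values are raw counts per gene, without normalization, and the treatment of strand is not given in the sources used here. Column names matched the sample labels for all 16 libraries, and no pair of libraries within a group was identical (0 of 24 pairs). The quasi-likelihood test of edgeR 4.0.16 in R 4.3.3, after TMM scaling and filterByExpr and with p-values adjusted by Benjamini-Hochberg, was run within each line, between lines on the DMSO libraries, and as an interaction over all libraries. A called gene had an average count above 10, a log2 change beyond 1 and an adjusted p below 0.1. Total counts were 5599571 to 7730228, so that a gene under 10 counts carries a large counting error. A gene with at most 3 counts over a group was at the floor. The tests were tried on simulated data with planted changes above 2-fold in genes of higher counts. Smaller changes and genes with few counts were not covered.

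The members and gene lists were chosen with earlier results of these data known. All 9 members are named, and per list and comparison the called genes in order of size, at most 6. Neighbouring genes and other names were chosen after their values were seen, and results for some genes that fall under the rule are not reported here. Coordinates are those of GENCODE release 44, and promoters are from RefSeq (GRCh38.p14). Alternatives were DESeq2 1.42.0, its size factors in edgeR, no filter, all 16 libraries in the fit, a replicate block, other thresholds and leaving out each library. In UWB1.289 the correlations of deviations between same-numbered libraries with and without olaparib were 0.147 to 0.241 over 8792 genes. Between libraries of unlike number the highest was 0.171, for DMSO replicate 1 with olaparib replicate 2. These values do not settle whether the numbers are pairs. The values printed are from the fit without the block, and the blocked fit is an alternative.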

Additional observations from a re-analysis of the deposited data

Results flagged for a closer look

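The olaparib effect differed between the lines for 2 of the 7 members tested by the interaction test of edgeR. Those tested include EMX2 and WT1, for which no difference is read. Among all 14243 genes tested 5.1% passed upward and 2.01% were called upward. For MECOM the difference of the log2 fold changes, UWB1.289 minus OVCAR3, was 1.27 (SE 0.183, adjusted p = 1.89e-05), lower in 4 of 4 OVCAR3 olaparib libraries than in every OVCAR3 DMSO library and higher in 4 of 4 UWB1.289 olaparib libraries than in every UWB1.289 DMSO library. For LHX1 it was 0.99 (SE 0.197, adjusted p = 0.00129), with 4 of 4 OVCAR3 olaparib libraries below the DMSO range and overlapping groups in UWB1.289. The doses were 7.5 µM and 3.5 µM, so that dose, medium, BRCA1 status and line cannot be told apart in either difference. No library stood apart from the other 3 of its group by Dixon's criterion in the 26 groups looked at.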

How the results depend on the processing

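For the 20 differences of single genes, 311 of 315 alternatives kept the direction and the side of the threshold, 0 lost the threshold, 2 gained it and 2 turned direction. In OVCAR3, SOX17 passed with the replicate block (adjusted p = 0.0947), though the numbers there share correlations of only 0.0422 to 0.166 and were not treated as pairs, and GATA6 passed without OVCAR3 DMSO replicate 3. SOX17 in UWB1.289, which passed in no fit, turned to -0.04 without UWB1.289 DMSO replicate 3 and to -0.09 without UWB1.289 olaparib replicate 2 (range over left-out libraries -0.09 to 0.13). Without the fold threshold 4 members were called in OVCAR3 in place of 0, 1 (MECOM) in UWB1.289 and 2 for the difference between lines. The number of members that passed in UWB1.289 was 2 in place of 1, with GATA6 added, with DESeq2, without the filter and with all 16 libraries, and 1 to 2 over left-out libraries, since GATA6 then enters the test. Members called for the difference between the lines were 2 with DESeq2 and without the filter (WT1 added, at or near 0 in UWB1.289), 2 with the replicate block (LHX1 added) and 1 to 3 over left-out libraries, with 3 (WT1 and LHX1 added) without OVCAR3 olaparib replicate 4. LHX1 lay between 0.81 and 1.11 in all these fits, on either side of 2-fold. The replicate block, under which MECOM in UWB1.289 had an adjusted p of 0.00982, changed no other call of a member. Between the lines 7 members in place of 6 passed with DESeq2 and without the filter, with ESR1 added. ESR1, with few counts, did not pass with olaparib when the filter was dropped (adjusted p = 0.917 in OVCAR3 and 0.219 in UWB1.289 by edgeR). PGR had at most 1 count in any library, too few to compare.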
